A study of Homo sapiens with 4 samples.

Results

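The genes of the eukaryotic translation initiation factors were read in 4 RNA-seq libraries of 2 human colorectal cancer cell lines, HCT116 and LOVO. The members were the rows of the deposited gene table annotated as protein-coding whose symbol begins with EIF followed by a digit from 1 to 6, which gave 56 of 58735 genes. No measured value entered this rule. There was 1 library each of HCT116 adherent cells, HCT116 spheroids, LOVO adherent cells and LOVO spheroids, all of unmodified genotype (WT). Adherent cells grew in RPMI-1640 with fetal bovine serum and carried the treatment label NO. According to the methods of the study, spheroids grew without attachment in serum-free DMEM/F12 with B27, N2, bFGF and EGF, and oxaliplatin, a platinum drug that crosslinks DNA, was added at 1 μg/ml. The sample labels give 1mg/ml for the spheroids and name no drug. Growth form, medium and drug changed together and cannot be told apart, and a line stands here for 1 culture in each form.

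Translation initiation places a ribosome with the initiator methionyl-tRNA at the start codon of an mRNA. EIF2 carries the initiator tRNA as a complex with GTP, EIF2B reloads EIF2 with GTP, and the EIF2-alpha kinases slow this exchange by phosphorylating EIF2 under stress. EIF1, EIF1A, EIF3 and EIF5 assemble with EIF2 on the small subunit, the EIF4F complex (the cap-binding EIF4E, the scaffold EIF4G and the helicase EIF4A) brings the mRNA, and EIF5B joins the large subunit. The 4E-binding proteins hold EIF4E away from EIF4G until mTORC1 phosphorylates them, which links initiation to growth factors and amino acids. Many mRNAs of the translation machinery begin with a C followed by a run of C and T, the 5′ terminal oligopyrimidine tract, through which mTORC1 and LARP1 act on their translation and stability.

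Such tracts at the annotated starts of the members are shown because they are a sequence feature that the choice of members did not use. RefSeq start windows on GRCh38.p14 were at hand for 47 of the 56 members, and the other 9 were EIF2AK1, EIF2S2, EIF3A, EIF3CL, EIF3E, EIF3G, EIF3H, EIF3L and EIF4EBP1. A C at the start followed by at least 4 more C or T stood at a start of 10 of these 47 members (21.3%), against 947 of 14896 protein-coding genes with a window (6.36%). The search read the transcribed strand only. Each line holds 10 bases before the start and 20 from it, 5′ to 3′ on the transcribed strand, with the tract in capitals. EIF1, a highly expressed member with no tract at its annotated start, is shown last for comparison.
EIF2A, chr3:150546777-150546806, plus strand: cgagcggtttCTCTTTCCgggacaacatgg
EIF2D, chr1:206612446-206612475, minus strand: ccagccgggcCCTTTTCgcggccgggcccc
EIF2S3, chrX:24054946-24054975, plus strand: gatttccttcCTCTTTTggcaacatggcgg
EIF2S3B, chr12:10505880-10505909, plus strand: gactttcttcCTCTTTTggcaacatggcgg
EIF3D, chr22:36529147-36529176, minus strand: cgcatgtttcCTCTTTTCCTggtttctcaa
EIF3F, chr11:7987327-7987356, plus strand: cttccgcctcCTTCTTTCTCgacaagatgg
EIF3K, chr19:38619178-38619207, plus strand: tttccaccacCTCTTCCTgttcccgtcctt
EIF3M, chr11:32583821-32583850, plus strand: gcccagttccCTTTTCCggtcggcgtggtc
EIF4A2, chr3:186783567-186783596, plus strand: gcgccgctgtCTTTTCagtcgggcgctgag
EIF4B, chr12:53006446-53006475, plus strand: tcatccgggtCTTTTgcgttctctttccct
EIF1, chr17:41688875-41688904, plus strand: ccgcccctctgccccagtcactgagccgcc

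The libraries held 15483569 to 20429147 reads on genes, of which 132638 to 227720 fell on the members. Values are FPKM, fragment counts divided by the gene's length and by the size of the library. The length covers all annotated exons, expressed or not, so levels and ratios between genes depend on the annotation. Mitochondrial genes took 24.7% of the summed FPKM in HCT116 adherent cells and 36.9% in HCT116 spheroids, against 14.7% and 16.1% in LOVO. The labelled cell type was checked against 10 markers of colonic epithelium. In LOVO adherent cells and LOVO spheroids 3 and 4 of the 10 reached 1 FPKM, and in HCT116 6 and 7. CDX2 was at 0 reads in both LOVO libraries and had 3.84 and 3.12 FPKM in HCT116. CDH1 had 0.117 and 0.00805 FPKM in LOVO against 31.1 and 31.1 in HCT116, and EPCAM 0.930 and 1.499 against 85.6 and 79.3. CDX1 and VIL1, at 0 reads in LOVO, were nearly absent from HCT116 too, at 0.0279 and 0 FPKM and at 0.0425 and 0.0946 FPKM. KRT8 and KRT18 lay between 81.7 and 189 FPKM in LOVO. Of 11 markers of immune cells, fibroblasts and endothelium, 3 in LOVO adherent cells and 6 in LOVO spheroids reached 1 FPKM, with a sum of 22.3 and 31.0 FPKM (DCN 10.4 and 9.97), against 1 in each HCT116 library, with 6.94 and 17.9. Of these 11 markers, PECAM1 had 0.0359 FPKM in LOVO adherent cells and 6.35 in LOVO spheroids, COL3A1 0.81 and 5.13, and CD14 0.148 and 1.79. COL1A1 (9.89 and 6.10) and DCN went the other way. The libraries labelled LOVO thus lacked CDX2 and nearly lacked CDH1 and EPCAM, all present in HCT116. What part the marker levels have in any difference between the lines, or between LOVO spheroids and LOVO adherent cells, was not tested.

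Together the members took a smaller share of the transcriptome in the spheroids of either line. Their share of the summed FPKM was 0.770% in HCT116 adherent cells and 0.545% in HCT116 spheroids, and 0.851% in LOVO adherent cells and 0.524% in LOVO spheroids. With mitochondrial genes left out of the sum the 4 shares were 1.02%, 0.864%, 0.998% and 0.625%. In these bulk samples, fewer cells of a kind and less RNA per cell cannot be told apart. The level varied widely within the family. EIF5A, the hypusine-containing factor that helps ribosomes through difficult peptide bonds, EIF4H, a cofactor of the EIF4A helicase, and EIF1, which guards start codon selection, were among the 6 members with the highest mean, with 70.3 to 253 FPKM. EIF4E, the cap-binding protein, lay between 3.35 and 6.29 FPKM, over a long annotated length of 14067 bases. Its homologue EIF4E3 lay between 0.406 and 2.05 FPKM, over 10779 bases.

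**Figure D1:**
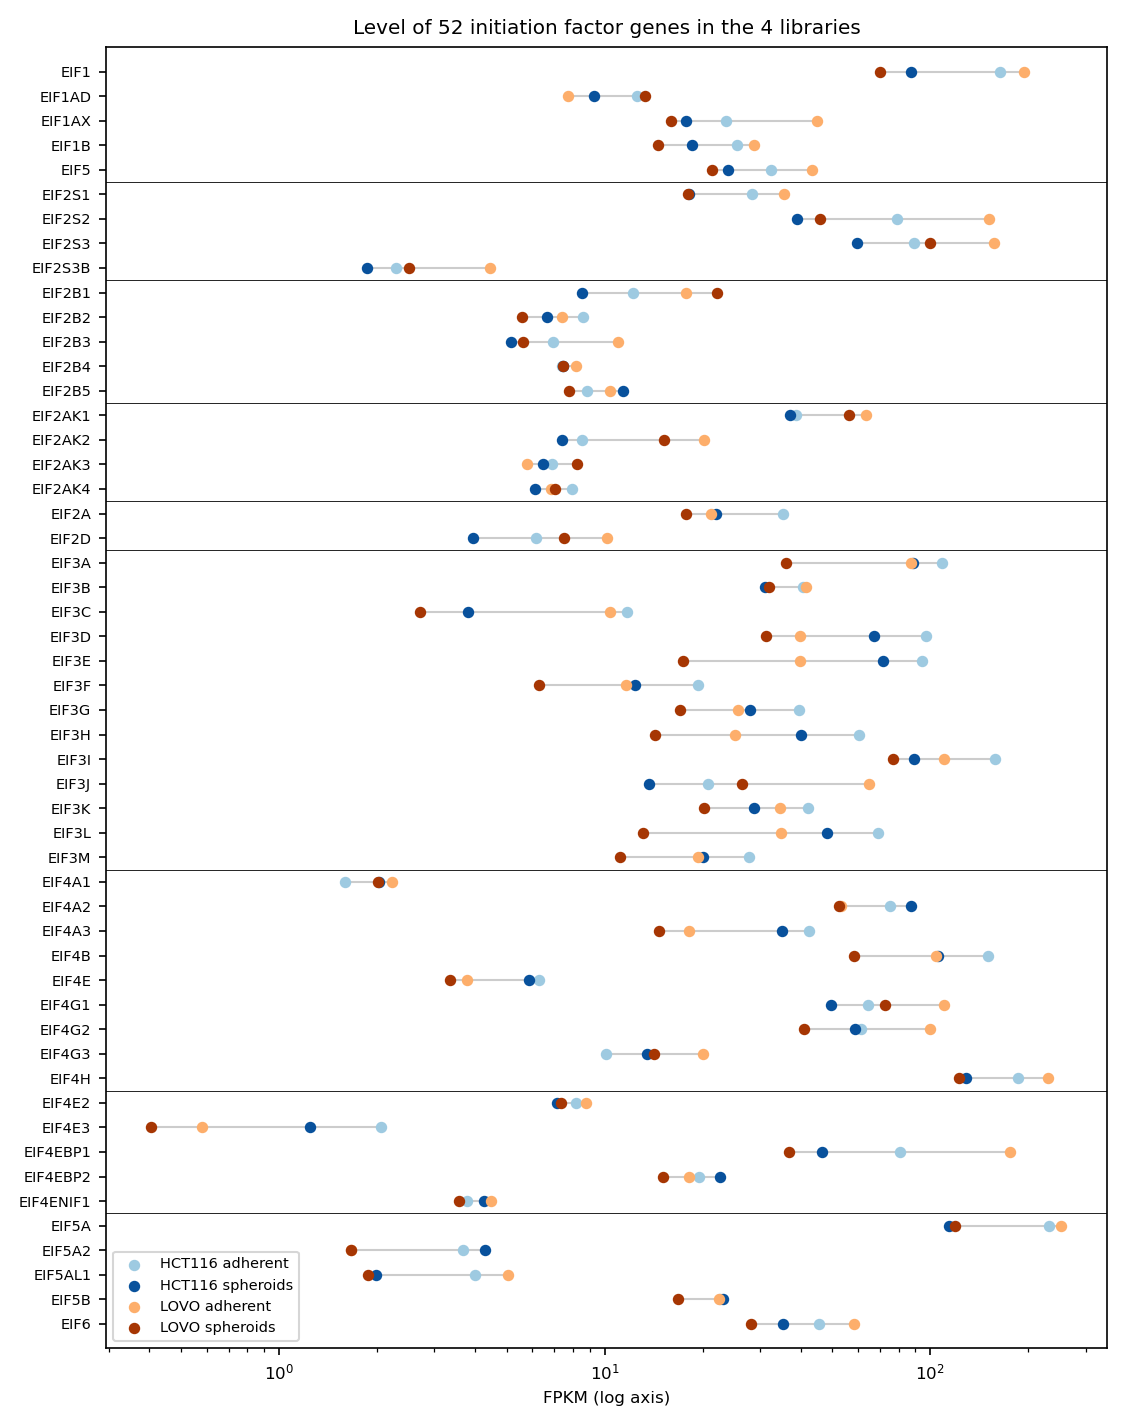
FPKM (log axis) of the 52 members with a mean of at least 1 FPKM, 1 point per library, with lines between role groups and a grey bar from the lowest to the highest library. The spheroid points lie to the left of the adherent points of the same line for 43 members in HCT116 and 48 in LOVO.

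The question of the spheroid comparison is which genes differ between adherent cells and drug-exposed spheroids of the same line. Differences are given as log2(FPKM + 1), spheroids minus adherent, over the 14429 genes with a mean of at least 1 FPKM, among them 52 members. EIF1AY, EIF3CL, EIF4E1B and EIF4EBP3 fell below this mean. Each condition was a single library, so a difference within a line stands without replicates and carries no p-value. The comparisons share libraries, since each library enters 1 comparison of growth forms and 1 of lines. In HCT116, 43 of the 52 members were lower in spheroids, against 53.4% of all genes compared, and 9 were higher (45.8%), namely EIF2B4, EIF2B5, EIF4A1, EIF4A2, EIF4EBP2, EIF4ENIF1, EIF4G3, EIF5A2 and EIF5B. In LOVO, 48 were lower, against 53.5%, and 4 were higher (45.5%), namely EIF1AD, EIF2AK3, EIF2AK4 and EIF2B1. Lower in both lines were 39 members, against 35.1% of all genes, and 0 were higher in both lines, against 27.2%. The median difference of the members was -0.40 in HCT116 and -0.58 in LOVO, beside -0.03 and -0.06 over all genes compared. Most of these differences were smaller than 1 on this scale. A difference below -1 was found for 3 members in HCT116 (3.33% of all genes) and 13 in LOVO (7.85%), and 0 members were above 1 in HCT116 (2.19%) or in LOVO (8.57%). The 3 below -1 in HCT116, EIF2S2, EIF3C and EIF5A, were below -1 in LOVO too (0.88% of all genes in both lines). EIF2S2 (-1.001) and EIF5A (-1.01) stood at the limit in HCT116, and under TPM, TMM-style scaling, centring or without mitochondrial genes EIF3C alone was below -1 there, whose level is uncertain because of its copy EIF3CL. At the looser limit of 0.5, 19 members in HCT116 (13.6% of genes) and 28 in LOVO (25%) lay below -0.5, 16 of them shared by the lines (6.56%), while above 0.5 stood 0 in HCT116 (10.7%) and EIF1AD in LOVO (20%). At the limit of 2 that the study's methods use, 0 members passed in HCT116 (0.506% of genes lower, 0.201% higher), and EIF4EBP1 alone was below -2 in LOVO (0.943%), with 0 above 2 (1.81%).

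A larger share of highly expressed genes was lower in spheroids, and many members were highly expressed. Among genes with a mean of at least 5 FPKM, 61.5% were lower in HCT116 spheroids and 63.0% in LOVO spheroids, and of the 45 members at that level 39 and 41. Among the 2347 genes with a mean of at least 20 FPKM, 71.7% were lower in HCT116 spheroids and 27 of the 29 members at that level. In LOVO the share was 70.9% and all of these 29 members were lower. Below -0.5 were 15 of these 29 members in HCT116, beside 28.1% of the genes, and 22 in LOVO, beside 44.9%. The comparison also moved with the scaling between libraries. With TPM, which rescales to a common sum and keeps mitochondrial genes, the median of all genes was -0.02 in HCT116 and 0.10 in LOVO. With mitochondrial genes left out and the rest rescaled, the median of all genes became 0.20 (HCT116) and 0.12 (LOVO), beside -0.15 and -0.37 for the members. At that scale 37 and 42 of the 52 members were lower, against 32.1% and 42.4% of the genes.

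**Figure D2:**
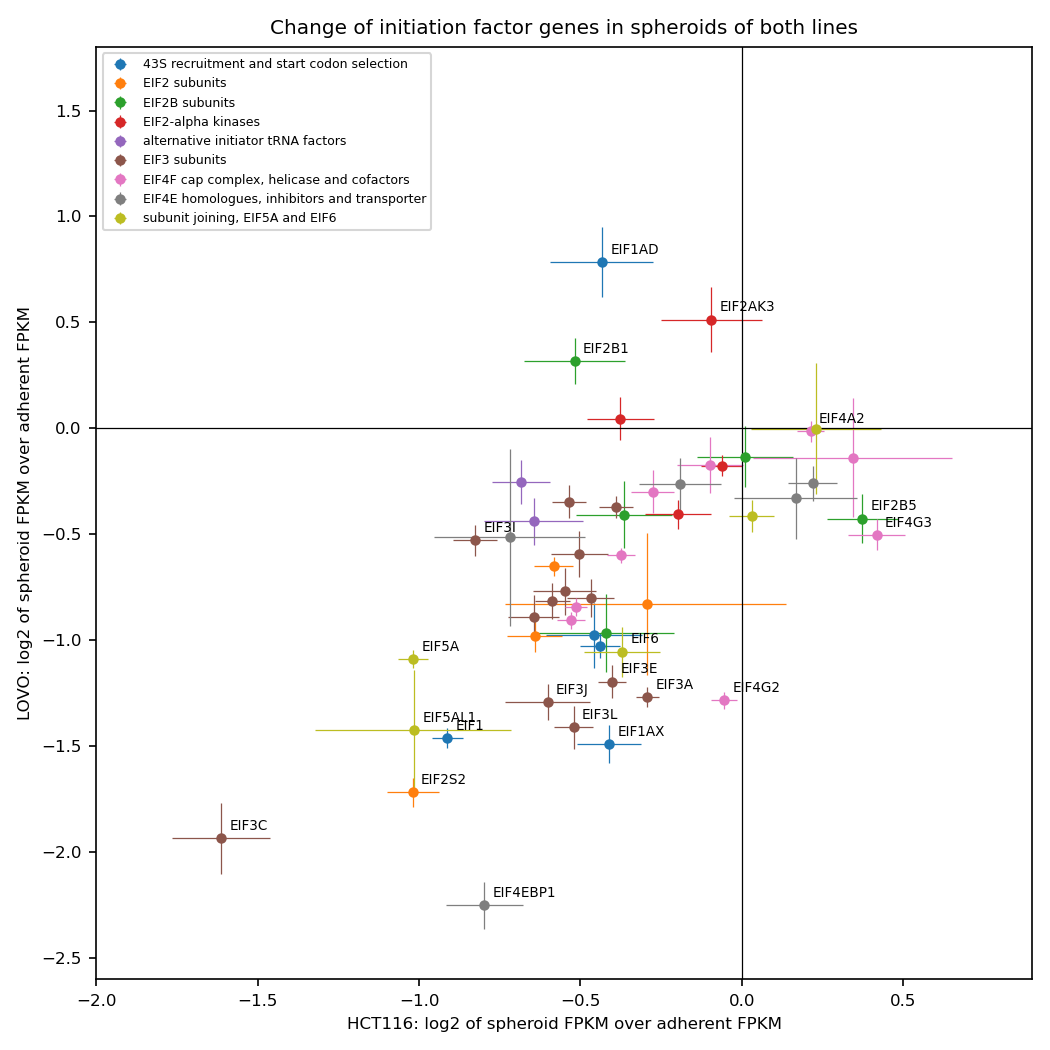
Log2 ratio of spheroid to adherent FPKM (no pseudocount) in HCT116 (x axis) and LOVO (y axis) for the 52 members, coloured by role, with bars for the 95% exact counting interval of each ratio. Most points lie at the lower left, where both lines were lower in spheroids, and EIF4EBP1, EIF2S2 and EIF3C lie farthest from 0.

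EIF3, the large scaffold on the small ribosomal subunit, was the largest group, and its 13 compared genes lay on one side. All 13 were lower in HCT116 spheroids (53.4% of all genes, 71.7% at a mean of at least 20 FPKM), with a median difference of -0.53. All 13 were lower in LOVO spheroids too (53.5% and 70.9%), with a median of -0.77. The count held with TPM, with TMM-style scaling, with centring and without mitochondrial genes, with medians from -0.52 to -0.26 (HCT116) and from -0.72 to -0.58 (LOVO). EIF3C, a core subunit on chromosome 16 (chr16:28688558-28735730, plus strand), had 11.7 FPKM in HCT116 adherent cells, 3.82 in HCT116 spheroids, 10.4 in LOVO adherent cells and 2.72 in LOVO spheroids. Both spheroid libraries were thus below both adherent libraries, with differences of -1.40 and -1.62. Its copy EIF3CL shares 97.2% of its 50-base stretches with other genes and EIF3C 45.4% of its own, so their reads can be split by the counting and the level of EIF3C is uncertain. EIF3I, a small WD-repeat subunit, had 158 and 89.4 FPKM in HCT116 and 110.5 and 76.6 in LOVO (-0.82 and -0.52). EIF3A, the largest subunit, showed the opposite weight, with 108 and 88.4 FPKM in HCT116 and 87.0 and 36.1 in LOVO (-0.29 and -1.25). EIF3L, with 69.3, 48.3, 34.9 and 13.1 FPKM in the same order, was also lower by more in LOVO (-0.51 and -1.35), but 51.8% of its exonic bases are overlapped by other genes.

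The 3 EIF2 subunits and the copy EIF2S3B were below 0 in both lines (35.1% of all genes), with medians of -0.59 (HCT116) and -0.79 (LOVO). EIF2S2, the beta subunit that contacts EIF5 and EIF2B, had 79.2 and 39.1 FPKM in HCT116 and 151 and 45.9 FPKM in LOVO, each adherent value first, with differences of -1.001 and -1.70. EIF2S1, the alpha subunit that carries the regulatory phosphorylation site, had 28.3, 18.2, 35.6 and 18.1 FPKM (-0.61 and -0.94). EIF2S3, the gamma subunit that binds GTP and the initiator tRNA, had 89.0, 59.4, 157 and 99.9 FPKM (-0.57 and -0.65). The differences of the subunits were unequal, and the ratio of EIF2S2 to EIF2S1 was 2.79 and 2.15 in HCT116 (adherent, then spheroids) and 4.24 and 2.54 in LOVO. EIF2S3B, with 76 to 193 reads, shares 26.8% of its 50-base stretches with other genes. EIF2S3 shares 19.2% and EIF2S2 22.55%, the latter foremost with its pseudogene EIF2S2P4. That pseudogene held 90 to 406 reads, beside 1743 to 7192 on EIF2S2, and how the counting split shared reads was not tested.

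The exchange factor and the kinases stood nearer to 0. The 5 EIF2B genes had medians of -0.32 and -0.35, and EIF2B1, the alpha subunit, was lower in HCT116 spheroids (12.2 and 8.53 FPKM, -0.47) and higher in LOVO spheroids (17.8 and 22.2 FPKM, 0.30). EIF2B5, the catalytic epsilon subunit, showed the reverse, with 8.80 and 11.4 FPKM in HCT116 (0.34) and 10.4 and 7.75 in LOVO (-0.38). Among the kinases, EIF2AK3 (PERK, activated by unfolded proteins in the endoplasmic reticulum) had 6.90, 6.46, 5.76 and 8.21 FPKM, a difference of -0.08 in HCT116 and 0.45 in LOVO. EIF2AK4 (GCN2, activated by uncharged tRNA) had 7.96, 6.13, 6.84 and 7.06 FPKM (-0.33 and 0.04). The kinases had a median of -0.13 in HCT116 and -0.07 in LOVO, and this median turned to 0.12 and 0.16 with mitochondrial genes left out, so no direction can be given for them. EIF2A and EIF2D, which deliver initiator tRNA without EIF2, were lower in both lines, EIF2D with 6.15, 3.93, 10.2 and 7.49 FPKM (-0.54 and -0.39).

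Of the factors that act with EIF2 on the small subunit, EIF1, EIF1AX, EIF1B and EIF5 were lower in both lines. EIF1 had 164 and 87.1 FPKM in HCT116 and 194 and 70.3 FPKM in LOVO (-0.90 and -1.45). EIF1AX, the X-linked scanning factor EIF1A, had 23.6, 17.8, 45.04 and 16.02 FPKM, so the spheroid libraries of both lines were close to each other and the adherent LOVO library stood highest (-0.39 and -1.44). EIF1B, a near copy of EIF1, had 25.5, 18.6, 28.7 and 14.6 FPKM (-0.44 and -0.93). EIF1AD, a nuclear protein with an EIF1A-like domain, was the member with the highest difference in LOVO, 7.73 FPKM in adherent cells and 13.3 in spheroids (0.71), while HCT116 had 12.5 and 9.28 (-0.40). Among the late-acting factors, the abundant EIF5A was lower in both spheroid libraries. It had 231 and 114 FPKM in HCT116 and 253 and 119 in LOVO (-1.01 and -1.08), whereas its paralogue EIF5A2 had 3.67, 4.30, 1.67 and 1.66 FPKM (0.18 and -0.0018). The ratio of EIF5A to EIF5A2 was 63.0 and 26.5 in HCT116 and 152 and 71.6 in LOVO. EIF5AL1, a copy of EIF5A with 128 to 347 reads, was also lower in both (-0.75 and -1.07). It shares 15.4% of its 50-base stretches with other genes, EIF5A foremost, and how the counting split such reads was not tested. EIF6, which keeps the large subunit from joining too early, had 45.7, 35.4, 58.5 and 28.2 FPKM (-0.36 and -1.03). EIF5B, which joins the subunits, had 22.6, 23.1, 22.5 and 16.8 FPKM, so that the difference was near 0 in HCT116 (0.03) and -0.39 in LOVO.

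Within the group of EIF4F, related helicases and cofactors, the scaffolds and helicases differed among themselves. Its 9 genes include EIF4A3 (-0.27 and -0.28), the helicase of the exon junction complex, and the scaffold homologue EIF4G2. The median of the 9 genes was -0.08 in HCT116 and -0.47 in LOVO, and without mitochondrial genes the HCT116 median turned to 0.17. EIF4B and EIF4H, cofactors that raise the activity of EIF4A, were lower in both lines. EIF4B had 151 and 106 FPKM in HCT116 and 104 and 58.2 in LOVO, with differences of -0.51 and -0.83. EIF4H had 186, 129, 229.8 and 123 FPKM (-0.53 and -0.90). EIF4A2, one of the EIF4A helicases, had 75.3 and 87.3 FPKM in HCT116 and 53.1 and 52.6 in LOVO (0.21 and -0.01). EIF4G1 had 64.4, 49.7, 110.3 and 72.8 FPKM (-0.37 and -0.59). EIF4G2, a scaffold homologue that does not bind EIF4E, had 61.2, 58.9, 99.7 and 40.9 FPKM, with the lowest LOVO difference of the group (-0.05 and -1.26). EIF4G3, a paralogue of the scaffold EIF4G1, had 10.1 and 13.5 FPKM in HCT116 (0.39), the highest difference of all members there, and 20.1 and 14.2 in LOVO (-0.47). EIF4A1 stood at only 1.60 to 2.22 FPKM, from 173 to 216 reads. Other annotated genes, among them the SENP3-EIF4A1 readthrough and snoRNAs, overlap 48.6% of its exonic bases, so its level is uncertain and its ratio to EIF4A2 was not read.

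The 4E-binding proteins separated. EIF4EBP1, which holds EIF4E in its unphosphorylated form, had 80.9 FPKM in HCT116 adherent cells, 46.5 in HCT116 spheroids, 175 in LOVO adherent cells and 36.8 in LOVO spheroids. Both spheroid libraries lay below both adherent libraries, with a difference of -0.78 in HCT116 and -2.22 in LOVO, the lowest of all members. EIF4EBP2, its paralogue, had 19.4, 22.6, 18.1 and 15.2 FPKM (0.21 and -0.25). EIF4E itself differed little (-0.08 and -0.14), so that the ratio of EIF4EBP1 to EIF4E FPKM was 12.9 and 7.93 in HCT116 and 46.4 and 11.0 in LOVO. The size of this ratio rests on annotated lengths of 1073 and 14067 bases, and only its change between libraries is read. In HCT116 adherent cells the 2 genes had 1769 and 1803 reads. The 5 compared homologues, inhibitors and the transporter EIF4ENIF1 had medians of -0.17 and -0.25, and without mitochondrial genes the HCT116 median turned to 0.08.

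**Figure D3:**
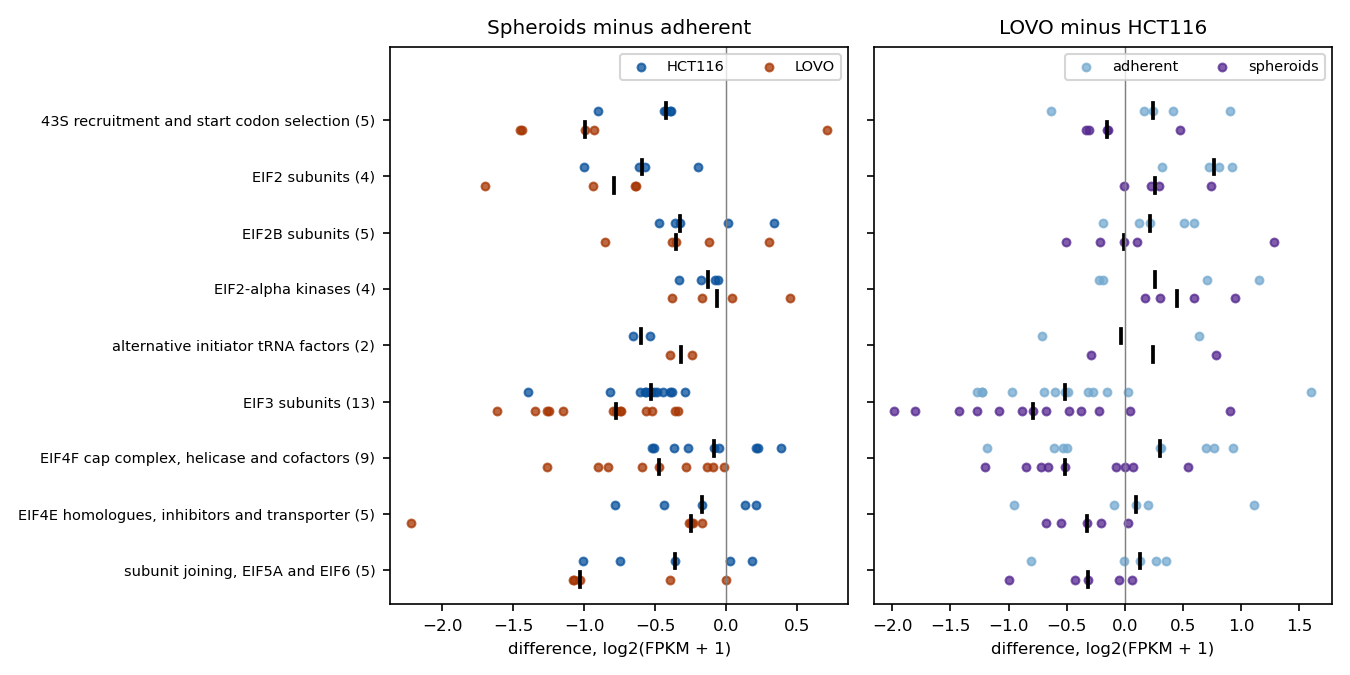
Difference on the log2(FPKM + 1) scale for each compared member by role group (number of genes in parentheses), spheroids minus adherent in each line (left) and LOVO minus HCT116 in each growth form (right), with black ticks for group medians. All 13 EIF3 genes lie below 0 on the left in both lines.

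Beyond counting error, given by 95% exact (Clopper-Pearson) intervals of the read ratio, 39 members were lower in HCT116 spheroids (35.0% of all genes compared) and 44 in LOVO spheroids (42.0%), and 36 in both (22.6%). Higher beyond counting error were 6 members in HCT116 (27.2%) and 3 in LOVO (32.1%). These intervals hold no variation between cultures and take the deposited scaling of the libraries as exact. The counts were not repeated under another scaling. When the 2 lines were taken as replicates in a limma fit with growth form and line as terms, which leaves 1 residual degree of freedom, no gene of 14429 passed an adjusted p of 0.05 for growth form (0.0%), and the smallest adjusted p was 0.462. At an unadjusted p under 0.05 were 1545 genes (10.7%) and 12 members, all 12 lower in spheroids (EIF1, EIF1AX, EIF2S1, EIF2S2, EIF3C, EIF3F, EIF3H, EIF3J, EIF3L, EIF4EBP1, EIF5A and EIF5AL1). The limma estimate with its moderated SE was -1.51 ± 0.25 for EIF3C, -1.503 ± 0.42 for EIF4EBP1 and -1.35 ± 0.30 for EIF2S2. A moderated SE is drawn toward a trend over all genes and does not give the spread of the gene itself. None of these differences passed the adjusted test.

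Of the 10 members with a start tract, such as EIF3F and EIF4B in the windows printed above, 9 were lower in HCT116 spheroids and 10 in LOVO spheroids, with medians of -0.53 and -0.64. Of the 34 compared members whose windows held none, 26 and 30 were lower, with medians of -0.36 and -0.39, beside 53.4% and 53.5% of all genes. Within EIF3 the order of the medians was the other way round, -0.53 and -0.74 for the 4 genes with a tract and -0.69 and -0.89 for the 4 without one. No difference between members with and without a tract was tested. The E-box CACGTG, which reads the same on both strands, stood in the 300-base promoter windows of 12 of the 47 members (25.5%), against 11.0% of genes with a window. The motif TGATGNAA, searched on both strands and bound by ATF4 with its partners, stood in 1 member, EIF4E3, against 3.61% of genes.

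Between the lines, most EIF3 subunits were lower in LOVO than in HCT116 in either growth form. In adherent cells 24 of 52 members were lower in LOVO (46.9% of all genes), 4 of them below -1 (16.4%), and 28 were higher (53.0%), 3 of them above 1 (17.4%). In spheroids 35 of 52 were lower in LOVO (48.4%), 6 below -1 (15.0%), and 17 were higher (51.6%), with EIF2B1 alone above 1 (17.7%). Below -0.5 and above 0.5 were 14 (27.9%) and 14 (32.7%) in adherent cells and 17 (28.3%) and 7 (31.1%) in spheroids. At the limit of 2, 0 members passed in adherent cells (5.59% lower, 5.26% higher) or in spheroids (4.71% and 5.68%). Beyond counting error, 23 members were lower (38.2%) and 25 higher (44.9%) in LOVO adherent cells, and 31 lower (39.5%) and 12 higher (42.8%) in LOVO spheroids. The median of the 13 EIF3 genes was -0.52 in adherent cells and -0.79 in spheroids, with 11 and 11 genes lower in LOVO, whereas the EIF2 subunits had medians of 0.77 and 0.26. The EIF3 median lay between -0.47 and -0.65 in adherent cells and between -0.60 and -1.01 in spheroids under the other scalings.

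**Figure D4:**
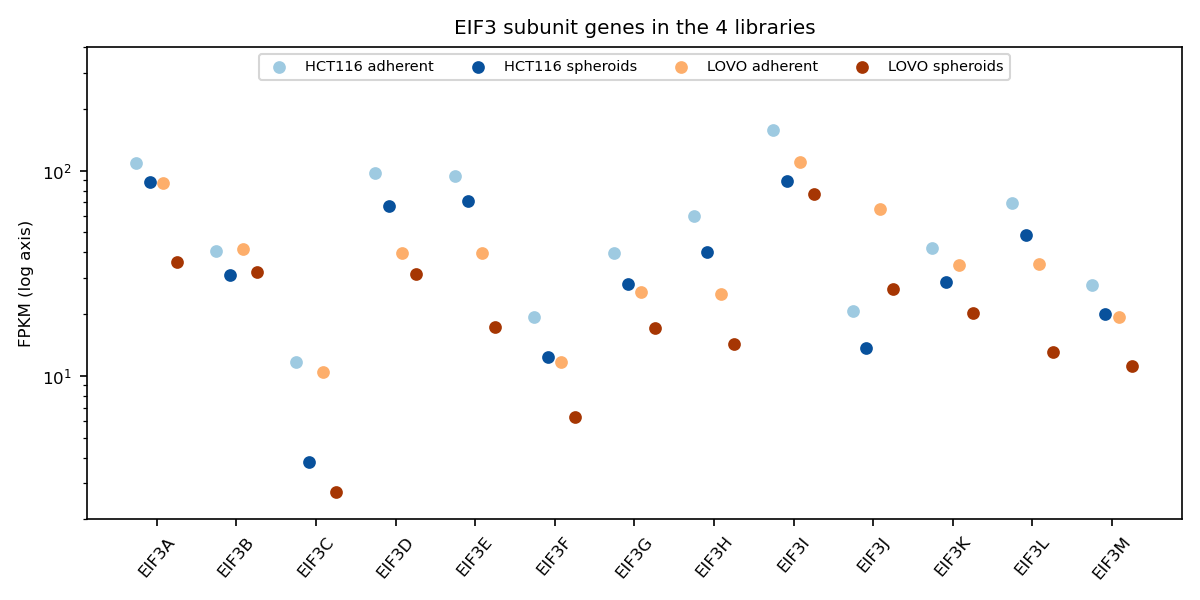
FPKM (log axis) of the 13 compared EIF3 genes, 1 point per library. Orange LOVO points lie below the blue HCT116 points of the same growth form for EIF3D, EIF3E, EIF3H and EIF3L, and above them for EIF3J, while EIF3B has nearly the same level in both lines.

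EIF3E, a subunit on chromosome 8 known as INT6, had 94.4 FPKM in HCT116 adherent cells and 71.5 in HCT116 spheroids, against 39.7 and 17.4 in LOVO. Both LOVO libraries were below both HCT116 libraries, with differences between lines of -1.23 in adherent cells and -1.98 in spheroids. EIF3H, on the same chromosome, had 60.2, 40.1, 25.2 and 14.3 FPKM (-1.23 and -1.42). EIF3D, the subunit that can bind the cap, had 97.4, 67.2, 39.8 and 31.3 FPKM (-1.27 and -1.08). EIF3J, a loosely attached subunit near the decoding centre, went the other way, with 20.7 and 13.7 FPKM in HCT116 and 64.9 and 26.5 in LOVO (1.60 and 0.91). The relative levels of the subunits therefore differed between the lines. The ratio of EIF3E to EIF3B was 2.32 and 2.30 in HCT116 and 0.959 and 0.542 in LOVO. For EIF3J to EIF3B it was 0.509 and 0.440 against 1.57 and 0.828.

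The limma fit with the growth forms as replicates of a line called 7 members at an adjusted p under 0.05, against 24.7% of all genes. Lower in LOVO by this test were EIF3E (-1.60, adjusted p = 0.0257), EIF3H (-1.32, 0.0248), EIF3D (-1.18, 0.0341), EIF3L (-1.39, 0.0369) and EIF4A3 (-1.20, 0.029), the helicase of the exon junction complex. Higher in LOVO were EIF3J (1.25, 0.0397) and EIF2AK2 (1.05, 0.0397), the kinase PKR that responds to double-stranded RNA. With the growth form left out of the fit 0 members passed, against 2645 of 14429 genes. At an unadjusted p under 0.05 were 10 members, against 35.4% of genes. EIF2AK2 had 8.51, 7.42, 20.2 and 15.2 FPKM, so both LOVO libraries stood above both HCT116 libraries (1.16 and 0.95). EIF4A3 had 42.5, 35.1, 18.1 and 14.7 FPKM (-1.19 and -1.20). The members with the highest and lowest differences included some that the test did not call. EIF2B1 had the highest difference in spheroids, 1.28, and 0.51 in adherent cells. EIF4EBP1 was higher in LOVO adherent cells (1.11) and lower in LOVO spheroids (-0.33) than in HCT116. EIF2AK1, the heme-regulated kinase, had 38.6, 37.0, 63.6 and 56.2 FPKM (0.71 and 0.59). EIF4E3 had 2.05, 1.25, 0.579 and 0.406 FPKM, lower in LOVO in both forms (-0.95 and -0.68).

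Genes around the initiation factors were read from lists, beside which 53.4% of all genes compared were lower in HCT116 spheroids and 53.5% in LOVO spheroids. Of 15 compared elongation, termination and recycling factors, 14 were lower in HCT116 spheroids and 14 in LOVO spheroids, with medians of -0.39 and -0.61, close to those of the members. EIF5A is modified with hypusine, and 5 of 6 genes of hypusine and polyamine metabolism were lower in each line (medians -0.64 and -0.74), among them OAZ1, an antizyme that inhibits ODC1. The other was DHPS, the enzyme of the first step of hypusine synthesis, with 0.996, 1.70, 0.761 and 1.55 FPKM (0.44 and 0.54). ODC1, the first enzyme of polyamine synthesis, had 104 and 36.6 FPKM in HCT116 and 57.4 and 21.0 in LOVO (-1.49 and -1.41). In a list around the EIF2-alpha kinases, with the phosphatase and the ATF4 axis, 15 of 16 genes were lower in each line. Medians were -1.15 and -1.25, with 8 and 11 genes below -1 (3.33% and 7.85% of all genes). GCN1 was higher in both lines (0.08 and 0.17), and NUPR1, counted as lower, had only 4 and 1 reads in HCT116. The 4 lowest by the sum of both lines are given. CHAC1, which degrades glutathione, had differences of -2.80 and -4.12, DDIT3, the stress factor CHOP, -4.23 and -1.53, ASNS, asparagine synthetase, -2.42 and -1.87, and SESN2, a leucine sensor upstream of mTORC1, -1.59 and -2.61. Of 17 genes of mTORC1 and its inputs, 12 and 14 were lower with medians of -0.13 and -0.25, and the HCT116 median turned to 0.13 without mitochondrial genes. Of 10 poly(A)-binding proteins and partners of EIF4G or EIF4A, 6 and 8 were lower, the first near the share of all genes, with medians of -0.18 and -0.72, of which the first turned to 0.07 without mitochondrial genes.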

How the data were processed

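Total RNA of each culture was extracted with an RNeasy kit and made into libraries with a SMARTER mRNA-Seq kit, and strand specificity is not given in the sources used here. The authors deposited FPKM values per gene, with gene lengths, and no aligner or counter is given in the sources used here. The submitters' processing notes name the mouse builds GRCm38 and mm10, but all 58735 gene identifiers and the start and end of all 56 members match the human GENCODE 29 annotation (GRCh38). FPKM times gene length gave whole multiples of a step in each library (100% within 0.001 reads), which recovered the reads behind each value. The table carries its own scaling, since the implied library sizes were 0.907 to 1.09 times the reads on genes. Lengths cover all annotated exons of a gene. No column of another sample was present (0).

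Differences were taken on log2(FPKM + 1), which understates those of low genes, for genes with a mean of at least 1 FPKM. Counting intervals (95%, Clopper-Pearson) cover counting error only. limma 3.58.1 in R 4.3.3 was fitted across the 14429 genes with growth form and cell line as terms and Benjamini-Hochberg adjustment. Gene variances were moderated (empirical Bayes) toward a trend with mean level, so each test borrows from all genes. In simulated data for growth form over 14429 genes, with both lines changed alike, limma recovered 137 of 200 changed genes with 2 false calls. Changes that differ between the lines were not simulated, so this recovery does not carry over to these data. Python 3.11.15, pandas 2.3.3, numpy 2.4.6 and scipy 1.17.1 did the rest, and matplotlib 3.10.9 drew the figures. Alternatives were a pseudocount of 0.1, no filter, a mean of at least 5 FPKM, TPM, TMM-style scaling, centring and thresholds of 0.5 and 2. Leaving out mitochondrial genes, and leaving out members that share much sequence, were added after seeing the data.

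FPKM values are given for the 6 highest and 6 lowest members of each comparison, the 6 with the highest mean FPKM, the EIF2 subunits and near-identical copies. The exceptions are EIF4A1 and EIF2S3B, given as ranges, EIF5AL1, given as reads and differences, and EIF3CL, without a level. EIF4E, EIF4G1, EIF4G2, EIF5B, EIF6, DHPS, OAZ1, GCN1 and NUPR1 were added after their values were seen. The level of the Y-linked member is not printed. From the other lists, at most 4 genes past 1 in both lines are named. The members, role groups and lists were chosen with earlier results of these data known. RefSeq sequences match GRCh38.p14.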

Additional observations from a re-analysis of the deposited data

Results flagged for a closer look

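Members that differed in opposite directions between spheroids and adherent cells of the 2 lines, each beyond its counting interval, numbered 5. The share of all genes with such opposite differences was not counted, so whether 5 is many or few is not known. Beyond counting error, 35.0% of all genes were lower and 27.2% higher in HCT116 spheroids, and 42.0% and 32.1% in LOVO spheroids. The intervals take the deposited scaling as exact, and the difference between the lines was not tested for any of these members. EIF1AD had -0.40 in HCT116 and 0.71 in LOVO, and EIF2B1 had -0.47 and 0.30. The other 3 were higher in HCT116 spheroids and lower in LOVO spheroids. EIF2B5 had 0.34 and -0.38, EIF4EBP2 had 0.21 and -0.25, and EIF4G3 had 0.39 and -0.47. EIF2B1 and EIF2B5 are subunits of 1 complex, the exchange factor of EIF2.

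Among rows with the same symbols that are not protein-coding, the divergent transcript EIF3J-DT, a lincRNA, had 87 reads in HCT116 adherent cells and 84 in HCT116 spheroids, against 199 in LOVO adherent cells and 554 in LOVO spheroids. EIF3J itself had 3717 and 1703 reads in LOVO, adherent cells first. Of 72 pseudogene rows, 14, 14, 16 and 16 held more than 3 reads in the libraries, in the order HCT116 adherent, HCT116 spheroids, LOVO adherent and LOVO spheroids. Their reads came to 0.880%, 0.828%, 0.958% and 0.824% of those on the members, and how the counting split reads between a member and its pseudogenes was not tested.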

How the results depend on the processing

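The scaling between libraries had the most effect. With TPM the members' median was -0.39 in LOVO spheroids minus adherent and -0.0185 in LOVO minus HCT116 spheroids, with TMM-style scaling it was -0.45 in LOVO and 0.0167 between adherent lines, and without mitochondrial genes it was -0.15 in HCT116, -0.37 in LOVO, -0.0141 between adherent lines and -0.41 between spheroids. The count of members below -1 in HCT116 was 1 (EIF3C) under TPM (4.33% of all genes), TMM-style scaling (3.07%), centring (3.11%) and without mitochondrial genes (3.14%). Without mitochondrial genes 7 and 11 members were below -1 in LOVO against HCT116 in adherent cells and spheroids, beside 22.1% and 22.1% of all genes, whose medians were then -0.0321 and -0.1209. Members above 1 in LOVO against HCT116 spheroids numbered 2 with a pseudocount of 0.1 (22.0% of all genes) and 4 with TPM (25.8%). With a threshold of 0.5 the counts lower and higher were 19 and 0 in HCT116, 28 and 1 in LOVO, 14 and 14 between adherent lines and 17 and 7 between spheroids, and with 2 only 1 member passed (EIF4EBP1 in LOVO), with 0 in every other comparison and direction. The limma calls between lines went from 7 to 0 members with growth form left out of the fit. Over all genes they went from 3564 to 2645. TPM moved the median of all genes to 0.10 in LOVO and 0.26 between spheroids, and the share of genes lower in LOVO to 43.5%, with 42 of 52 members lower. Of 960 values of named members under the alternatives, 936 kept their sign, and the 24 that did not had reported sizes of 0.22 or less. The other pseudocount and the filters cannot turn a sign, so the values under them say nothing on this point. All 24 arose under TPM, TMM-style scaling, centring or without mitochondrial genes. Leaving out 4 compared members that share much sequence left 48. The limma fit pairs the growth forms by cell line. With cell line left out it called 0 members for growth form, as with it. At an unadjusted p under 0.05 were 4 members in place of 12, beside 1.13% in place of 10.7% of genes. Each condition has 1 library, so there were no replicate numbers to block.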
